A study of Rattus norvegicus with 84 samples.

Results

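The kidneys of aged rats given RAD001 for 6 weeks were compared with the kidneys of vehicle-treated rats of the same age. The libraries were chosen by their titles, which name kidney, an age of 24 months, and RAD001 (8 libraries) or vehicle (10 libraries). They make up 18 of the 84 libraries of the series. The whole study measured total RNA of kidney, liver and gastrocnemius muscle by RNA-seq in male Sprague Dawley rats of 3 groups. In the RAD001 group, treatment began at 22.5 months of age. These rats took RAD001, dispersed in water with methylcellulose, by mouth once a week (7 doses) and vehicle on the remaining days, and were read out at 24 months. The vehicle group had the same ages and took the drug-free dilution by mouth every day. A young vehicle group, treated from 4.5 months and read out at 6 months (10 kidneys), was part of the same statistical fit and gives the age values quoted beside some genes. The sources used here do not give the amount of RAD001 per dose. RNA came from powder of whole frozen kidney, so fewer cells of a type and less RNA per cell cannot be told apart. The labels do not say whether each library is a separate rat, and p-values measure the spread between libraries.

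RAD001, also called everolimus, is a derivative of rapamycin. It binds the small protein FKBP12, and the pair inhibits mechanistic target of rapamycin complex 1 (mTORC1), a kinase complex that responds to amino acids, energy and growth factors. Active mTORC1 promotes ribosome production, translation of mRNAs with a 5′ terminal oligopyrimidine tract (TOP mRNAs), and the synthesis of lipids and nucleotides, and it holds back autophagy. The kidneys of old male rats commonly develop a progressive nephropathy in which tubules are injured, immune cells enter and collagen-rich matrix accumulates.

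Levels are given as scaled coverage, which is the deposited mean read coverage per base of a locus after scaling between libraries. Where 3 values stand together they are the lowest, the median and the highest library of a group, in that order, of 8 RAD001 and 10 vehicle kidneys. A gene rose or fell where limma's moderated test on log2(scaled coverage + 0.1), with Benjamini-Hochberg adjustment over 10447 loci, gave an adjusted p under 0.05. Log2 changes are RAD001 minus vehicle on that scale, which understates the change of low genes.

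Kidney identity was present in both groups. The proximal tubule marker Lrp2 (megalin) stood at 26.1, 30.1 and 39.5 in RAD001 kidneys, against 14.4, 23.3 and 35.4 in vehicle kidneys, and the thick ascending limb marker Umod (uromodulin) stood at 74, 98.1 and 115 in RAD001 kidneys, against 69, 90.2 and 132 in vehicle kidneys. The podocyte gene Nphs1 (nephrin) stood at 0.166, 0.264 and 0.369 in RAD001 kidneys, against 0.139, 0.226 and 0.333 in vehicle kidneys. The relative depth estimated from small loci ran from 0.835 to 1.13 (median 0.969) in RAD001 kidneys and from 0.992 to 1.41 (median 1.13) in vehicle kidneys (exact permutation test over 43758 allocations, two-sided, p = 0.00302). The RAD001 libraries had 13054 to 13415 loci above 0 and the vehicle libraries 13433 to 13767. The non-coding 7SL RNA of the particle that targets secreted proteins stood at 27814, 34066 and 40949 as deposited in RAD001 kidneys, against 22242, 25004 and 30427 in vehicle kidneys (exact permutation p = 0.000137).

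The RAD001 kidneys also stood apart at a second locus annotated as 7SL. Its value was 4.28% to 5.82% of that of the first locus in RAD001 kidneys, against 17.9% to 19.7% in even-numbered and 11.6% to 13.2% in odd-numbered vehicle kidneys. The young vehicle kidneys were split in the same way by library number (18.97% to 20.57% even, 12.11% to 13.05% odd), as were the livers of all 3 groups (16.0% to 20.2% even, 9.14% to 13.4% odd), RAD001 livers included. The RAD001 kidneys had no such split and lay next to the gastrocnemius libraries of all 3 groups (5.08% to 6.64%). The sources used here name no batch or preparation date, so handling of the RAD001 kidney libraries and RAD001 treatment cannot be told apart in any kidney value below. Between odd and even numbers of the 20 vehicle kidneys, with age in the fit, limma called 2 loci (0.0191% of those tested), and 600 had an unadjusted p under 0.05. Of the 3910 loci called in the comparison, 0 were among these 2, and an overlap with so few loci carries little. Against the odd-numbered vehicle kidneys alone 2682 loci (26.3%) were called, against the even-numbered alone 2551 (25%), and 1890 (48.3%) of the called loci were called both times in the same direction. These splits were made after seeing the data. They do not test the handling of the RAD001 kidney libraries, which resembled neither number set at the second 7SL locus. Traces of skeletal muscle were also unequal. The muscle actin gene Acta1 was above 0.1 in 6 of 8 RAD001 and 0 of 10 vehicle kidneys, and the muscle list summed to at most 9.56 as deposited (RAD001 library 6), 0.194% of the median of the gastrocnemius vehicle libraries. No member of the muscle or adrenal lists passed the filter on low values. Of the 12 members of a hepatocyte list, 5 were tested and 1 fell, and albumin reached 1.39 in 1 RAD001 kidney.

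Of 10447 loci tested, 3910 (37.4%) changed, 1916 (18.3%) of them upward and 1994 (19.1%) downward. Each list count below is to be read against these shares. The median log2 change over all loci was 0.00015 and the median standard error 0.071. Most changes were small. At least 1.5-fold changes passed the test at 327 loci (3.13%), of which 81 rose and 246 fell, and at least 2-fold changes at 34 loci, of which 3 rose and 31 fell. The RAD001 and vehicle groups did not overlap at 340 loci (3.25%), 145 higher and 195 lower with RAD001. At 129 loci (1.23%) all RAD001 kidneys lay outside the range of all 20 vehicle kidneys, old and young together, 25 above it and 104 below. The split between rises and falls depended on scaling. With upper-quartile scaling 33.65% of the called loci rose, with the values as deposited 39.22%, and with the main scaling 49%. With the 7SL level of each library as a covariate, 441 loci (4.22%) were called, 168 up and 273 down, and 418 of them were also called without it. Of the loci called without it, 98.47% kept the sign of their change, their median absolute log2 change was 0.228 with the covariate and 0.279 without, and the median standard error of the same called loci was 0.113 and 0.0717.

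**Figure D1:**
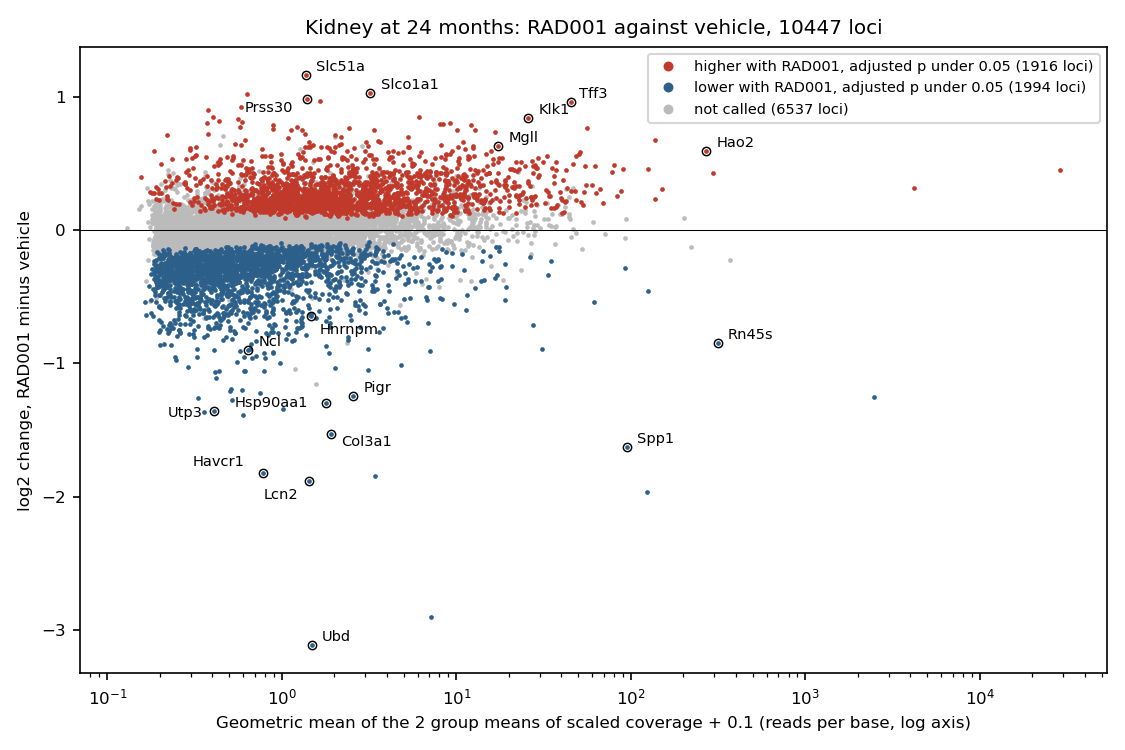
Each point is 1 of 10447 loci. The horizontal axis is the geometric mean of the 2 group means of scaled coverage + 0.1 on a log scale, and the vertical axis is the log2 change, RAD001 minus vehicle, with called loci in colour. Most called loci lie within a 1.5-fold change, and 246 of the 327 larger called changes are falls.

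On the first principal component of the 3 kidney groups (40.3% of the variance) the RAD001 kidneys ran from -10.4 to 6.61, the vehicle kidneys of the same age from -3.46 to 32.8 and the young vehicle kidneys from -19.6 to -6.73, so neighbouring groups overlapped. On the second component (11.7%) the RAD001 kidneys ran from 10.4 to 15.3, the old vehicle kidneys from -5.86 to 1.88 and the young ones from -10.3 to -4.56. All RAD001 kidneys were above all vehicle kidneys of either age on that component.

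Among genes with a group mean of at least 1, the groups did not overlap in the falls with the smallest p-values. Hnrnpm, which encodes a splicing regulator (chromosome 7 from 18693854 to 18731848 on the minus strand, rn5 build), stood at 1.01, 1.07 and 1.19 in RAD001 kidneys, against 1.65, 1.73 and 1.84 in vehicle kidneys (log2 change -0.64, SE 0.036, adjusted p = 8.78e-14). Hsp90aa1, the inducible cytosolic form of the HSP90 chaperone (chromosome 6 from 144182012 to 144187540 on the minus strand), stood at 0.908, 1.01 and 1.21 in RAD001 kidneys, against 2.06, 2.75 and 3.15 in vehicle kidneys (log2 change -1.30, SE 0.074, adjusted p = 1.37e-13). Each RAD001 kidney was below each vehicle kidney for both genes, and the spread within a group was small. The age differences of the same vehicle kidneys were -0.082 for Hnrnpm and -0.20 for Hsp90aa1 on the log2 scale (24-month minus 6-month vehicle). Gtf2f1, a subunit of the general transcription factor TFIIF, stood at 0.611, 0.744 and 0.779 in RAD001 kidneys, against 1.07, 1.25 and 1.37 in vehicle kidneys (log2 change -0.68, adjusted p = 1.84e-12). Mtpn, which encodes myotrophin, stood at 2.14, 2.27 and 2.46 in RAD001 kidneys, against 3.18, 3.41 and 3.75 in vehicle kidneys (log2 change -0.56, adjusted p = 3.61e-11). Pdcd4, an inhibitor of the helicase eIF4A that is a substrate of the mTORC1 target S6K, stood at 1.07, 1.22 and 1.31 in RAD001 kidneys, against 1.8, 2.34 and 2.72 in vehicle kidneys (log2 change -0.87, adjusted p = 2.98e-10). Lower without overlap were also Hnrnpu (log2 change -0.56), another nuclear RNA-binding protein, Nagk (-0.74), a kinase of N-acetylglucosamine, Slk (-0.69), a protein kinase, and Pdap1 (-0.73).

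Among the rises with the smallest p-values at the same level, Zfp706, a small zinc finger protein (chromosome 7 from 75945357 to 75951900 on the minus strand), stood at 3.19, 3.52 and 3.71 in RAD001 kidneys, against 2.14, 2.33 and 2.7 in vehicle kidneys (log2 change 0.53, SE 0.042, adjusted p = 1.53e-10). Polr2l, a small subunit shared by the nuclear RNA polymerases, stood at 11.4, 12.6 and 14 in RAD001 kidneys, against 7.09, 8.19 and 10.03 in vehicle kidneys (log2 change 0.62, adjusted p = 6e-08). Mgll, the lipase that splits monoacylglycerols (chromosome 4 from 185912102 to 186011677 on the plus strand), stood at 19.6, 20.9 and 23.4 in RAD001 kidneys, against 11, 13.5 and 18.7 in vehicle kidneys (log2 change 0.63, adjusted p = 2.3e-07). For all 3 the lowest RAD001 kidney was above the highest vehicle kidney. The same held for Pgrmc1 (log2 change 0.50), a haem-binding membrane protein, Vdac1 (0.44), the channel of the outer mitochondrial membrane, Chchd2 (0.51), a mitochondrial protein, Derl1 (0.29), a component of endoplasmic reticulum quality control, Cops8 (0.41), a subunit of the COP9 signalosome, and Armc1 (0.45). Fdx1, the ferredoxin of mitochondrial steroid hydroxylation, rose with a small overlap of the groups, at 4.17, 4.74 and 5.6 in RAD001 kidneys, against 2.62, 3.12 and 4.24 in vehicle kidneys (log2 change 0.58, adjusted p = 6.93e-07). All of the genes named in these paragraphs, rises and falls, were also called with 7SL as a covariate.

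**Figure D2:**
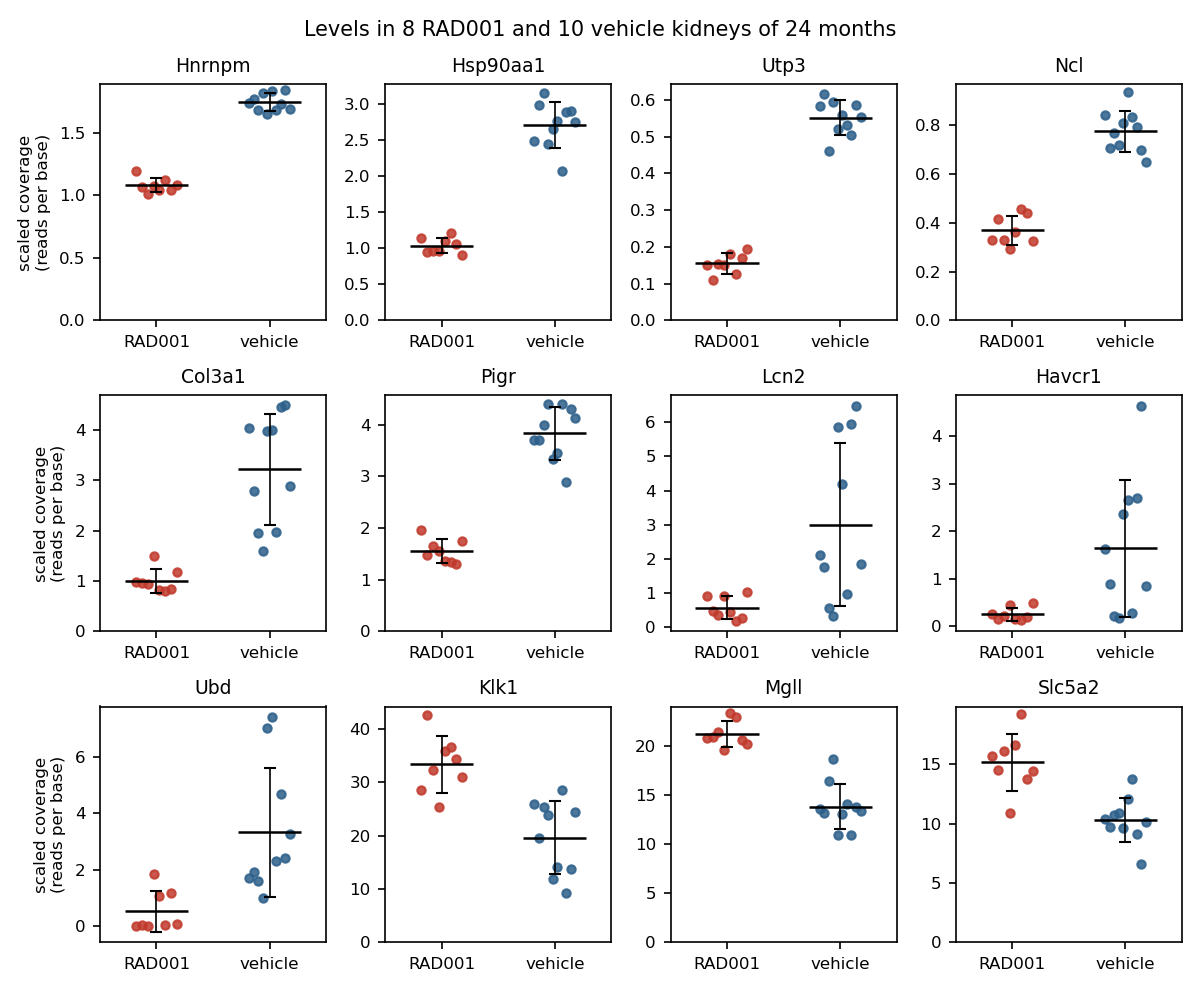
Scaled coverage (mean reads per base) of 12 genes in each of 8 RAD001 and 10 vehicle kidneys, 1 point per library, with the mean and its SD as a line and bar. The groups are apart for Hnrnpm, Hsp90aa1, Utp3, Ncl, Col3a1, Pigr and Mgll, and overlap for Lcn2, Havcr1, Ubd, Klk1 and Slc5a2.

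Among the largest rises of genes with a group mean of at least 1, Slc51a, a subunit of the basolateral bile acid and steroid transporter, stood at 0.63, 1.66 and 4.46 in RAD001 kidneys, against 0.0969, 0.655 and 1.96 in vehicle kidneys (log2 change 1.16, SE 0.35, adjusted p = 0.0102). Slco1a1, an organic anion transporter, stood at 2.84, 3.99 and 5.45 in RAD001 kidneys, against 0.254, 2.27 and 4.82 in vehicle kidneys (log2 change 1.03, adjusted p = 0.0222); in the fit of only the 2 groups compared its adjusted p was 0.0585. Gc, the vitamin D-binding protein, stood at 1.45, 2.04 and 2.52 in RAD001 kidneys, against 0.168, 1.27 and 2.03 in vehicle kidneys (log2 change 0.97, adjusted p = 0.0149). The groups overlapped for all 3. Klk1, tissue kallikrein, which releases kinins from kininogen, stood at 25.4, 33.4 and 42.5 in RAD001 kidneys, against 9.24, 21.7 and 28.5 in vehicle kidneys (log2 change 0.84, adjusted p = 0.000291), overlapped little, and was the 1 gene of the 15 largest rises still called with 7SL as a covariate. Ddx19a, an RNA helicase of mRNA export, stood at 9.88, 11.4 and 17.1 in RAD001 kidneys, against 4.48, 7.21 and 9.05 in vehicle kidneys (log2 change 0.80, adjusted p = 5.07e-05) without overlap. Esr1, the oestrogen receptor alpha, stood at 0.876, 1.04 and 1.27 in RAD001 kidneys, against 0.35, 0.561 and 0.941 in vehicle kidneys (log2 change 0.76, adjusted p = 3.07e-05), with overlap. The other members of the 15 largest rises were Prss30, Tff3, Inmt, Fam151a, Dhrs7, Tcea3, Zbed5, Slc7a13 and Gucy1b2, with log2 changes from 0.75 to 0.98, of which Dhrs7 had an adjusted p of 0.0602 in the fit of the 2 groups alone.

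Injury, immune, matrix and ribosomal RNA genes made up most of the largest falls. Ubd, a ubiquitin-like modifier induced by interferon gamma and tumour necrosis factor (chromosome 20 from 3917781 to 3919728 on the minus strand), stood at 0, 0.0696 and 1.85 in RAD001 kidneys, against 0.989, 2.38 and 7.4 in vehicle kidneys (log2 change -3.11, SE 0.55, adjusted p = 9.73e-05). In 5 RAD001 kidneys it was at 0.0843 or less, under all vehicle kidneys, and in the other 3, libraries 5, 6 and 8, it stood at 1.85, 1.08 and 1.19, inside the vehicle range. Pigr, the receptor that carries polymeric immunoglobulin across epithelia (chromosome 13 from 52652970 to 52680757 on the plus strand), stood at 1.31, 1.52 and 1.97 in RAD001 kidneys, against 2.88, 3.86 and 4.41 in vehicle kidneys (log2 change -1.25, SE 0.10, adjusted p = 3.82e-10), without overlap. Ahnak, a very large scaffold protein under the plasma membrane, stood at 2.79, 3.16 and 4.01 in RAD001 kidneys, against 4.97, 6.8 and 8.86 in vehicle kidneys (log2 change -1.01, adjusted p = 1.44e-08), also without overlap. Slpi, a secreted inhibitor of leukocyte proteases, stood at 0.101, 0.449 and 1.05 in RAD001 kidneys, against 0.40, 1.63 and 3.19 in vehicle kidneys (log2 change -1.34, adjusted p = 0.00132), and Fam129a, a stress-response protein, stood at 0.30, 0.433 and 0.524 in RAD001 kidneys, against 0.466, 1.12 and 1.86 in vehicle kidneys (log2 change -1.06, adjusted p = 5.49e-05). Ccl21, a chemokine of lymphatic vessels, stood at 1.34, 1.91 and 2.8 in RAD001 kidneys, against 1.63, 4.94 and 7.46 in vehicle kidneys (log2 change -1.05, adjusted p = 0.000827), and S100a11, a calcium-binding protein, stood at 0.879, 1.26 and 1.65 in RAD001 kidneys, against 1.23, 2.45 and 5.02 in vehicle kidneys (log2 change -1.03, adjusted p = 0.000147). For these 4 genes the groups overlapped. Among the 15 largest falls, Pigr, Ahnak, Fam129a, S100a11, Hsp90aa1, Col3a1 and the ribosomal RNA loci were also called with 7SL as a covariate, and Ubd, Lcn2, Havcr1, Spp1, Slpi and Ccl21 were not.

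The 45S and 5.8S ribosomal RNA loci, read from total RNA, were lower in RAD001 kidneys. The 45S precursor locus Rn45s stood at 182, 237 and 278 as deposited in RAD001 kidneys, against 353, 410 and 544 in vehicle kidneys (exact permutation p = 2.29e-05, the smallest 43758 allocations can give). The 5.8S loci summed to 46.7, 62.0 and 89.7 as deposited in RAD001 kidneys and to 146, 247 and 530 in vehicle kidneys (exact permutation p = 0.000137), again without overlap. Even-numbered vehicle kidneys had 146 to 254 and odd-numbered ones 240 to 530, while the RAD001 kidneys showed no such order (51.4 to 72.4 even, 46.7 to 89.7 odd). The gastrocnemius libraries of all 3 groups had 5.8S sums of 43.3, 68.7 and 332, and the livers 67.8, 199 and 315. As at the second 7SL locus, the RAD001 kidneys lay near the gastrocnemius median, and handling and RAD001 treatment cannot be told apart. The age difference of Rn45s was -0.043 on the log2 scale. Rn28s, of 28S ribosomal RNA, stood at 260, 346 and 408 as deposited in RAD001 kidneys, against 295, 402 and 545 in vehicle kidneys. Its groups overlapped and the difference did not pass (exact permutation p = 0.0589). These loci are repeated in the genome and their reads can be split between copies. No source used here gives the share of ribosomal RNA that the library preparation left in each sample, so its part in this difference was not tested.

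Of 58 tested members of a nucleolus and ribosome assembly list, 17 fell and 0 rose, with a median log2 change of -0.072, against 19.1% falling, 18.3% rising and a median of 0.00015 over all loci. Utp3, a factor of the small-subunit processome (chromosome 14 from 21063825 to 21065479 on the minus strand), stood at 0.11, 0.153 and 0.195 in RAD001 kidneys, against 0.46, 0.555 and 0.616 in vehicle kidneys (log2 change -1.36, SE 0.065, adjusted p = 4.53e-15). Rrp15, needed for maturation of the large subunit (chromosome 13 from 109807397 to 109830711 on the minus strand), stood at 0.147, 0.181 and 0.258 in RAD001 kidneys, against 0.411, 0.504 and 0.569 in vehicle kidneys (log2 change -1.07, SE 0.078, adjusted p = 4.14e-11). Nucleolin, the most abundant nucleolar RNA-binding protein (Ncl, chromosome 9 from 93097881 to 93106405 on the minus strand), stood at 0.292, 0.348 and 0.457 in RAD001 kidneys, against 0.65, 0.779 and 0.934 in vehicle kidneys (log2 change -0.90, SE 0.075, adjusted p = 3.79e-10). In these 3 genes every RAD001 kidney was below every vehicle kidney, and the age differences of the vehicle kidneys were 0.065, 0.093 and 0.14. Among members named after their values were seen, Rrs1, a large-subunit assembly factor, changed by -0.55, Bms1, a GTPase of the small-subunit processome, by -0.41, and Ubtf, the RNA polymerase I factor UBF, by -0.38. The mean relative level of the list in each library (log2, mean of the vehicle kidneys set to 0) was -0.18, -0.14 and -0.12 in RAD001 kidneys and -0.09, 0.01 and 0.06 in vehicle kidneys, so all RAD001 libraries were lower. Under the 7SL covariate 7 of the members that fell were still called and 1 other member rose. With the sum of both 7SL loci as the covariate 9 fell and 1 rose. With upper-quartile scaling 24 fell.

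The E-box CACGTG, the core of the site bound by MYC and related factors, was searched on both strands in the 300-base RefSeq windows around the annotated starts (GRCr8 build, a newer build than that of the coverage files). It is its own reverse complement. It was present in 17 of the 55 nucleolus and ribosome assembly members with a window (30.9%), in 6.65% of all 27457 windows and in 9.74% of the windows of tested genes. Of the 15 members with a window that fell, 4 held it (Nop2, Rrp15, Gnl3 and Noc3l). The window of Rrp15 is shown because Rrp15 had the largest fall of these 4. It lies at chr13:100830763-100831062 (minus strand), the E-box is in capitals, and its first base is 26 bases downstream of the start base.
Rrp15: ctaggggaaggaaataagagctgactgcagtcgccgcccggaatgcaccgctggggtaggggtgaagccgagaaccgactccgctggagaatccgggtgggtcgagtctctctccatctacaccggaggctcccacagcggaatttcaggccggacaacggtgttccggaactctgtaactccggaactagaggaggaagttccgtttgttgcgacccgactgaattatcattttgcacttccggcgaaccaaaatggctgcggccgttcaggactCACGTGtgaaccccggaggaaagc

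Genes of the mTORC1 pathway itself changed in both directions. Of 39 tested members 4 rose and 8 fell (median -0.077), against 18.3% rising and 19.1% falling over all loci. The groups did not overlap at 1 member, which was lower with RAD001, against 3.25% of all loci. Pdcd4, named above as a substrate of S6K, fell by a log2 change of -0.87 without overlap. Mtor, the kinase, stood at 0.64, 0.778 and 0.87 in RAD001 kidneys, against 0.524, 0.599 and 0.769 in vehicle kidneys (log2 change 0.25, adjusted p = 0.0103). Eif4ebp1, the translation repressor 4E-BP1 that mTORC1 phosphorylates, stood at 0.282, 0.421 and 0.531 in RAD001 kidneys, against 0.399, 0.63 and 0.853 in vehicle kidneys (log2 change -0.45, adjusted p = 0.00257). Eef2k, the kinase that slows elongation and is itself restrained by S6K, stood at 0.281, 0.302 and 0.398 in RAD001 kidneys, against 0.393, 0.53 and 0.67 in vehicle kidneys (log2 change -0.56, adjusted p = 1.42e-05). The groups overlapped in all 3. Tfe3, a transcription factor of lysosomal genes, fell (log2 change -0.28), and Mapkap1, a subunit of mTORC2, rose (0.20). Rptor, the mTORC1 scaffold raptor, had a log2 change of -0.091 (adjusted p = 0.327), and Fkbp1a, which encodes the drug's binding partner FKBP12, one of -0.14 (adjusted p = 0.0513). Fkbp1a was called without vehicle library 2, 3, 6 or 10 or RAD001 library 1, 2 or 3 (adjusted p from 0.0159 to 0.0499). It was also called with upper-quartile scaling (adjusted p = 0.0135), median-of-ratios scaling (0.0489) and the filter at 1 (0.00783). Rps6kb1, the kinase S6K1, fell by a log2 change of -0.15 (adjusted p = 0.0232), with an adjusted p of 0.0594, 0.0509 and 0.0577 without RAD001 library 1, 2 or 3 and 0.0519 with values as deposited. With upper-quartile scaling 13 members of the list fell and 3 rose, with values as deposited 7 and 2.

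Translation genes were mixed, against 18.3% of all loci rising and 19.1% falling. Of 75 tested cytosolic ribosomal proteins 13 rose and 19 fell (median -0.048). Rpl14, of the large subunit, stood at 25.2, 26 and 27.3 in RAD001 kidneys, against 19.2, 21.5 and 24 in vehicle kidneys (log2 change 0.27, adjusted p = 9.41e-05), and its groups did not overlap. Many ribosomal protein genes have near-identical processed copies, so their coverage is uncertain. Rps18 (-0.51) and Rps16 (-0.48) fell, and Rplp1 (0.31) rose. The rises dropped to 7 with upper-quartile scaling and to 5 with values as deposited, and the falls were 26 and 19. Of 22 translation factors with TOP mRNAs 7 rose, among them Eif3l (0.21), and 6 fell, among them the histone chaperone gene Nap1l1 (-0.37). The falls were 3 without vehicle library 4 or 7 or RAD001 library 2 or 3, and with upper-quartile scaling 6 rose and 9 fell, with values as deposited 3 and 4. Of 20 tRNA synthetases 5 (25%) fell, near the share over all loci, and none rose. The falls were led by Lars (-0.27), Eprs (-0.23) and Nars (-0.24), which charge leucine, glutamate with proline, and asparagine tRNAs. With upper-quartile scaling 9 fell.

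Targets of ATF4, the transcription factor of amino acid shortage, moved in both directions (8 rose and 6 fell of 22, median -0.13). The rises were 5 without vehicle library 4 or RAD001 library 6, and 5 with upper-quartile scaling, where 8 fell, and with values as deposited, where 6 fell. Asns, asparagine synthetase, stood at 0.162, 0.228 and 0.266 in RAD001 kidneys, against 0.293, 0.391 and 0.77 in vehicle kidneys (log2 change -0.73, adjusted p = 7.67e-05), without overlap. Stc2, stanniocalcin 2, stood at 0.342, 0.747 and 0.934 in RAD001 kidneys, against 0.112, 0.288 and 0.817 in vehicle kidneys (log2 change 0.92, adjusted p = 0.00249), with overlap. The serine synthesis enzyme Phgdh (0.39) and the mitochondrial serine enzyme Shmt2 (0.40) rose. In nucleotide synthesis 4 of 29 rose and 6 fell. Adss, which commits inosine monophosphate to adenine nucleotides, stood at 1.91, 2.01 and 2.51 in RAD001 kidneys, against 2.64, 3.08 and 3.63 in vehicle kidneys (log2 change -0.54, adjusted p = 1.84e-07), without overlap.

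Of 23 tested sterol synthesis members 7 fell and 1 rose (median -0.14), against 19.1% falling and 18.3% rising over all loci. With 7SL as a covariate 2 of the members that fell were still called. With the sum of both 7SL loci as the covariate 3 fell. Srebf2, the transcription factor that drives the pathway, stood at 0.276, 0.309 and 0.363 in RAD001 kidneys, against 0.395, 0.485 and 0.56 in vehicle kidneys (log2 change -0.49, adjusted p = 1.1e-06). The groups did not overlap, and Srebf2 was also called with 7SL as a covariate. Sqle, squalene epoxidase, also fell (-0.55). Fatty acid synthesis was mixed (5 rose and 3 fell of 20), with the elongase Elovl5 (0.23) higher and acetyl-CoA carboxylase, Acaca (-0.26), lower. The rises there were 3 without vehicle library 4, 7, 8 or 9 or RAD001 library 1, and with values as deposited, where Elovl5 was not called, 1 rose and 3 fell. In glycolysis and hypoxia targets 4 rose, led by Pgk1 (0.25) and enolase 1, Eno1 (0.29), and 4 fell, led by the platelet-type phosphofructokinase Pfkp (-0.46) and the hexokinase Hk2 (-0.41), of 30. That is 26.7% called, under the 37.4% over all loci. Taldo1 (0.27) and Pgls (0.33) of the pentose phosphate pathway rose.

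Lysosome and autophagy genes, which mTORC1 restrains, did not move one way. Of 49 members 11 rose and 8 fell (median 0.028), and with upper-quartile scaling 7 rose and 14 fell, with values as deposited 5 and 8. Map1lc3a, an LC3 protein of the autophagosome membrane, stood at 3.91, 4.05 and 4.55 in RAD001 kidneys, against 2.67, 3.26 and 3.67 in vehicle kidneys (log2 change 0.35, adjusted p = 0.00016), and the groups were apart. The conjugation genes Atg5 (0.29) and Atg12 (0.28) rose, and Atg16l1 (-0.25), their partner, and Becn1 (-0.21), beclin 1, fell. The proteasome was likewise divided, with 6 of 31 subunits higher and 7 lower. The ATPase subunit Psmc5 stood at 1.4, 1.57 and 1.65 in RAD001 kidneys, against 2.1, 2.25 and 2.47 in vehicle kidneys (log2 change -0.50, SE 0.042, adjusted p = 4.52e-10), and the catalytic subunit Psmb5 stood at 8.61, 9.63 and 10.6 in RAD001 kidneys, against 7.02, 7.32 and 8.62 in vehicle kidneys (log2 change 0.30, adjusted p = 0.000136). Only Psmc5 of this pair was apart between the groups. Cytosolic chaperones (4 rose and 6 fell of 28) and endoplasmic reticulum chaperones (5 and 6 of 27) were divided too. Hsp90b1, the HSP90 of the endoplasmic reticulum, stood at 4.27, 4.53 and 4.92 in RAD001 kidneys, against 5.19, 5.89 and 6.88 in vehicle kidneys (log2 change -0.37, adjusted p = 0.000168), without overlap. The endoplasmic reticulum rises were 3 without vehicle library 1 or 8 or RAD001 library 7 or 9, 2 without RAD001 library 6, 1 with upper-quartile scaling and 0 as deposited. With upper-quartile scaling 11 cytosolic chaperones fell and 2 rose.

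Mitochondrial lists held many small rises and few falls. Of 36 subunits and assembly factors of respiratory complex I 20 rose and 0 fell (median 0.18), and of 38 genes of complexes II to V 27 rose and 3 fell (median 0.21). Sdhc, a membrane anchor of complex II, stood at 27, 29.1 and 31.1 in RAD001 kidneys, against 19.1, 22.7 and 26.9 in vehicle kidneys (log2 change 0.35, adjusted p = 1.75e-05). Uqcrc1, a core protein of complex III, stood at 18.4, 19.6 and 21.3 in RAD001 kidneys, against 13.4, 15.4 and 17.9 in vehicle kidneys (log2 change 0.34, adjusted p = 2.52e-05). Every RAD001 kidney was above every vehicle kidney for these 2 genes. Ndufa4 (0.35) and Ndufb11 (0.25) also rose. Against the direction of the list, cytochrome c1, Cyc1, stood at 9.46, 10.9 and 13.1 in RAD001 kidneys, against 11.9, 14.9 and 16.9 in vehicle kidneys (log2 change -0.43, adjusted p = 1.45e-05), and Atp5h of ATP synthase stood at 13.6, 15.2 and 16.8 in RAD001 kidneys, against 16.9, 19.2 and 22.1 in vehicle kidneys (log2 change -0.34, adjusted p = 2.14e-05). Atp5h was below all vehicle kidneys and Cyc1 overlapped. Of 22 citric acid cycle genes 13 rose and 0 fell (median 0.19), with Mdh1 (0.28) and Sdha (0.26) among them. Of 69 mitochondrial ribosomal proteins 27 rose, led by Mrpl34 (0.42), and 2 fell, among them Mrpl20 (-0.34). With values as deposited 17 of them rose. With 7SL as a covariate 1 of the rises in these 4 lists was still called, in complexes II to V, and 2 falls of complexes II to V and 1 of the mitochondrial ribosome. With the sum of both 7SL loci as the covariate 6, 10, 3 and 4 rises were called, in the order of the lists above.

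Fatty acid oxidation (17 rose, 0 fell of 32, median 0.25) and gluconeogenesis with ammonia production (12 rose, 1 fell of 20, median 0.28), both typical of the proximal tubule, were higher. Slc37a4, the glucose-6-phosphate carrier that glucose release needs, stood at 12.8, 14 and 15.1 in RAD001 kidneys, against 5.96, 10.3 and 12.3 in vehicle kidneys (log2 change 0.55, adjusted p = 0.000133). Hadhb, a subunit of the mitochondrial trifunctional protein, stood at 11.5, 12.3 and 13.4 in RAD001 kidneys, against 8.81, 10.1 and 11.1 in vehicle kidneys (log2 change 0.30, adjusted p = 0.000336). For both the groups were apart. Fbp1, fructose-1,6-bisphosphatase, rose with overlap (0.50), as did Etfa (0.35), which carries electrons from fatty acid oxidation, and the acetyl-CoA thioesterase Acot12 (0.77). Among glutathione genes and targets of NRF2 15 of 32 rose and 4 fell. Glutathione peroxidase 1, Gpx1, stood at 68.9, 72.2 and 77.3 in RAD001 kidneys, against 43.5, 52.7 and 61.7 in vehicle kidneys (log2 change 0.48, adjusted p = 1.45e-05), and mitochondrial superoxide dismutase, Sod2, stood at 9.32, 9.53 and 9.94 in RAD001 kidneys, against 7.68, 8.07 and 8.71 in vehicle kidneys (log2 change 0.23, adjusted p = 6.43e-06). Both were apart between the groups, while haem oxygenase 1, Hmox1, which is induced by oxidative stress, fell with overlap (-0.72). Of 27 kidney P450 and related oxidase genes 8 rose, led by Cyp2c23 (0.57), the main arachidonic acid epoxygenase of rat kidney, and Fmo1 (0.55), and 2 fell. Adding 7SL to the fit left 1 rise and 1 fall of these 4 lists called, both in the glutathione and NRF2 list. With the sum of both 7SL loci as the covariate 5, 5, 4 and 2 rises were called, in the order of these lists. In the glutathione and NRF2 list 2 genes then fell.

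**Figure D3:**
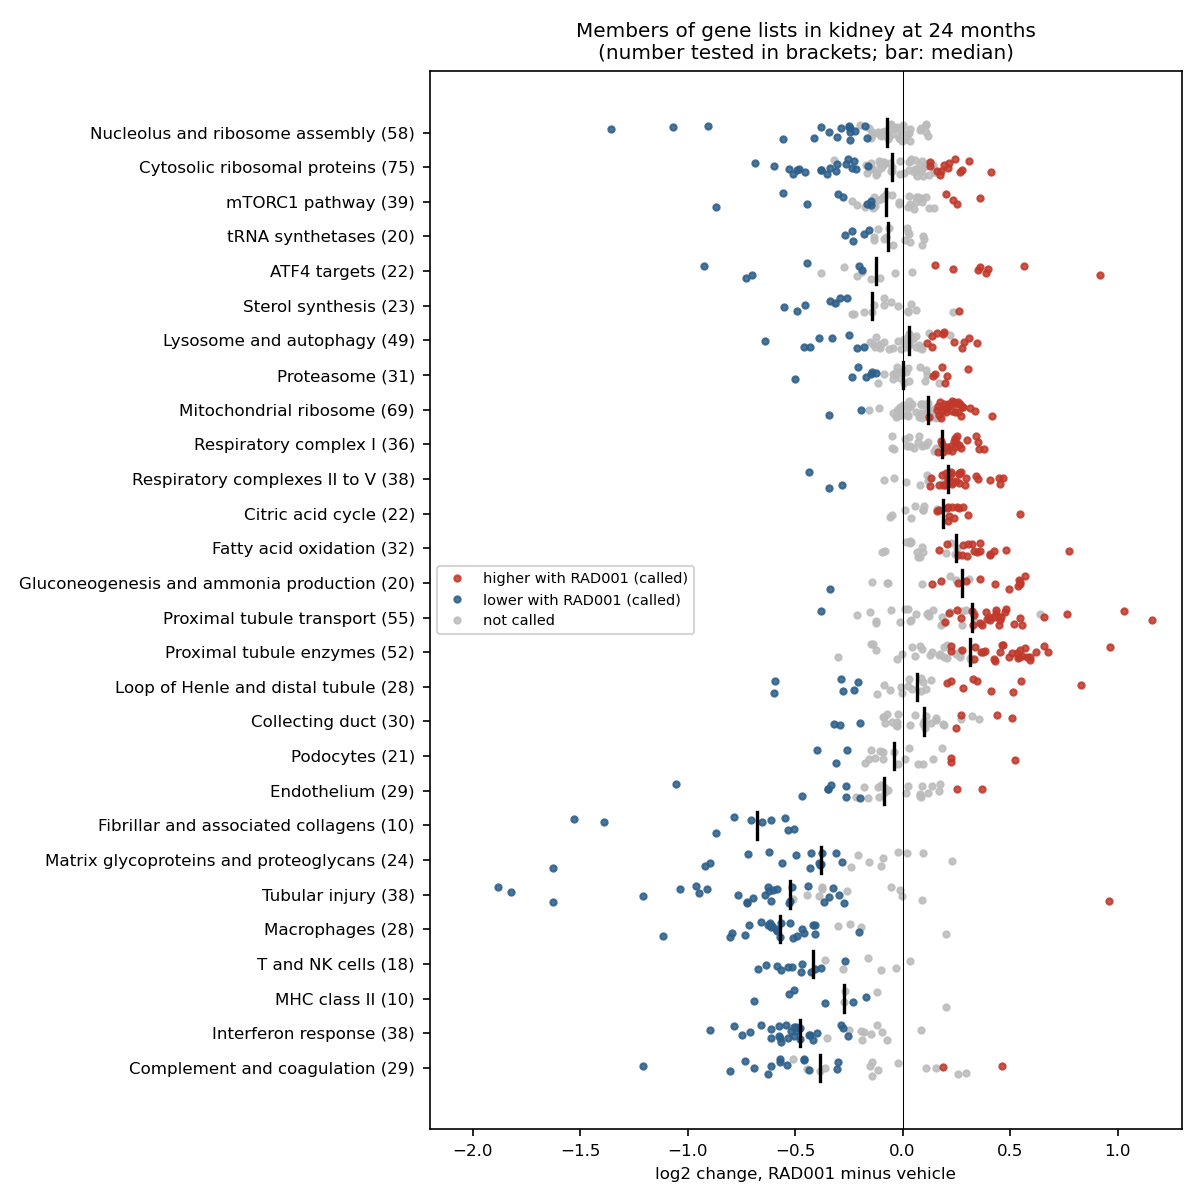
Log2 change (RAD001 minus vehicle, horizontal axis) of each tested member of 28 gene lists (1 row per list, 1 point per gene), coloured by whether it rose, fell or was not called, with the median as a bar. Mitochondrial and proximal tubule lists lie mostly to the right of 0 and matrix, injury and immune lists to the left, with the collagen median at -0.68.

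The collagen genes fell most uniformly. All 10 tested members of the fibrillar and associated collagens fell, with a median log2 change of -0.68; 4 more of the 17 listed did not pass the filter on low values, and the rest were not analysed here. Col3a1, the fibrillar collagen of scar and reticular fibres (chromosome 9 from 51689492 to 51725418 on the plus strand), stood at 0.806, 0.951 and 1.51 in RAD001 kidneys, against 1.6, 3.43 and 4.49 in vehicle kidneys (log2 change -1.53, SE 0.16, adjusted p = 6.41e-08). Col5a2, a collagen of fibril cores (chromosome 9 from 51757496 to 51906270 on the minus strand), stood at 0.18, 0.264 and 0.334 in RAD001 kidneys, against 0.535, 0.888 and 1.17 in vehicle kidneys (log2 change -1.39, SE 0.12, adjusted p = 1.02e-09). Col11a1 stood at 0.0823, 0.101 and 0.128 in RAD001 kidneys, against 0.156, 0.238 and 0.345 in vehicle kidneys (log2 change -0.71, adjusted p = 7.45e-07). These 3 genes had all RAD001 kidneys below all vehicle kidneys. Col1a1, the main fibrillar collagen, stood at 0.0775, 0.114 and 0.192 in RAD001 kidneys, against 0.111, 0.282 and 0.501 in vehicle kidneys (log2 change -0.78, adjusted p = 0.000251), with overlap. The members not named by rule, which were chosen after their values were seen, were Col1a2 (-0.65), Col5a1 (-0.50), Col6a2 (-0.55), Col8a1 (-0.87), Col16a1 (-0.61) and Col18a1 (-0.53). The mean relative level of the list was -0.99, -0.79 and -0.68 in RAD001 kidneys and -0.55, 0.06 and 0.43 in vehicle kidneys, so it too was apart. Of the 10, 6 were still called with 7SL as a covariate, the largest share among the lists of matrix. With the sum of both 7SL loci as the covariate all 10 fell. All 10 fell under each scaling and with each library left out in turn.

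Of 24 matrix glycoproteins and proteoglycans 15 fell and 0 rose (median -0.38). Sparc, a collagen-binding matrix protein, stood at 2.86, 3.14 and 3.52 in RAD001 kidneys, against 3.28, 5.11 and 6.2 in vehicle kidneys (log2 change -0.62, adjusted p = 2.87e-05). Mgp, matrix Gla protein, an inhibitor of calcification, stood at 18.3, 21.7 and 27.9 in RAD001 kidneys, against 22.3, 42 and 61.3 in vehicle kidneys (log2 change -0.90, adjusted p = 5.64e-05). The groups overlapped in both, as in the proteoglycan biglycan, Bgn (-0.72). Of 29 matrix enzymes and inhibitors 15 fell, among them the gelatinase Mmp2 (-0.75) and the procollagen processing enhancer Pcolce (-0.56), and 3 rose, among them the protease inhibitor Timp3 (0.34). Of 12 basement membrane genes 5 fell, led by Col4a1 (-0.73). In TGF-beta signalling 8 of 27 fell and 1 rose. Tgfb1 stood at 0.0811, 0.106 and 0.15 in RAD001 kidneys, against 0.11, 0.182 and 0.226 in vehicle kidneys (log2 change -0.39, adjusted p = 0.0019), with overlap. Bmp7, a kidney growth factor that opposes TGF-beta, was the member that rose (0.31). Markers of fibroblasts and mural cells fell at 10 of 18 genes and rose at 1 (median -0.31), with Pdgfra (-0.40), Dpt (-0.59) and Vim (-0.64) lower. With 7SL as a covariate 0 genes of the glycoprotein, basement membrane, TGF-beta and fibroblast lists and 1 of the matrix enzymes were still called. With the sum of both 7SL loci as the covariate 5, 1, 2 and 2 genes of these 4 lists fell, and 5 of the matrix enzymes.

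Tubular injury genes fell at 27 of 38 tested members and rose at 1 (Tff3), with a median log2 change of -0.52. Lcn2, the secreted iron-carrier-binding lipocalin NGAL (chromosome 3 from 16763059 to 16766404 on the minus strand), stood at 0.176, 0.445 and 1.02 in RAD001 kidneys, against 0.316, 1.97 and 6.48 in vehicle kidneys (log2 change -1.88, SE 0.42, adjusted p = 0.00103). Havcr1, the kidney injury molecule KIM-1 (chromosome 10 from 31644784 to 31668189 on the plus strand), stood at 0.124, 0.195 and 0.476 in RAD001 kidneys, against 0.167, 1.26 and 4.64 in vehicle kidneys (log2 change -1.82, SE 0.42, adjusted p = 0.00133). The vehicle kidneys spread widely and the lowest of them lay inside the RAD001 range for both genes. The same 24-month vehicle kidneys were above the young ones by 2.92 for Lcn2 and 2.76 for Havcr1 on the log2 scale. The list's mean relative level was -0.82, -0.63 and -0.26 in RAD001 kidneys and -0.69, -0.02 and 0.74 in vehicle kidneys, and vehicle libraries 2, 3 and 6 were the low ones and 4, 5, 7 and 8 the high ones. RAD001 libraries 5 and 9 were the highest of the treated. Cdkn1a, the cell cycle inhibitor p21, stood at 0.219, 0.31 and 0.386 in RAD001 kidneys, against 0.349, 0.456 and 0.557 in vehicle kidneys (log2 change -0.44, adjusted p = 0.000176). With 7SL as a covariate 3 of the members that fell were still called. With the sum of both 7SL loci as the covariate 11 injury genes fell.

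In a list of p53 targets and senescence genes 6 of 29 rose, Cdkn1c (0.27) among them, and 9 fell, Btg2 (-0.48) among them. The falls there were 5 without vehicle library 7 or RAD001 library 1, 2, 3, 6, 7 or 8, and 4 without vehicle library 8. With values as deposited 1 rose and 6 fell. Of 21 tested cell cycle genes 7 fell and 1 rose; the mitotic kinase Cdk1 stood at 0.0318, 0.0479 and 0.0944 in RAD001 kidneys, against 0.0759, 0.169 and 0.28 in vehicle kidneys (log2 change -0.75, adjusted p = 0.000192), and Cdk4, the kinase of the G1 phase, stood at 2.13, 2.36 and 2.45 in RAD001 kidneys, against 2.51, 2.78 and 3.16 in vehicle kidneys (log2 change -0.25, adjusted p = 0.000399). Cdk1 was low in both groups and overlapped, and Cdk4 was apart. Of 22 immediate early genes 6 fell and 1 rose. Myc, a driver of ribosome production, stood at 0.0659, 0.126 and 0.145 in RAD001 kidneys, against 0.111, 0.195 and 0.319 in vehicle kidneys (log2 change -0.46, adjusted p = 0.00189), and Atf3 fell by a log2 change of -0.70.

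Macrophage markers fell at 24 of 28 tested genes and rose at 0 (median -0.57). Gpnmb, a glycoprotein of lipid-laden macrophages, stood at 0.0749, 0.17 and 0.289 in RAD001 kidneys, against 0.181, 0.488 and 0.847 in vehicle kidneys (log2 change -1.11, adjusted p = 0.000108). Mpeg1, perforin-2, stood at 0.622, 0.906 and 1.19 in RAD001 kidneys, against 0.847, 1.7 and 2.7 in vehicle kidneys (log2 change -0.79, adjusted p = 0.000686). The groups overlapped for both, with the lowest vehicle kidneys among the RAD001 kidneys. The list's mean relative level was -0.74, -0.56 and -0.14 in RAD001 kidneys and -0.62, -0.03 and 0.55 in vehicle kidneys. T and NK cell markers fell at 12 of 18 tested genes (median -0.42), Cd3e (-0.58) and Lat (-0.57) among them, at levels mostly under 1. B and plasma cell genes were mostly below the filter, and of 5 tested 3 fell and 1 rose. Of 10 MHC class II genes 6 fell, RT1-Db1 (-0.69) and RT1-Ba (-0.53) among them, and of 18 class I and antigen processing genes 9 fell. The class I falls numbered 15 without vehicle library 2 or 3, and 16 with upper-quartile scaling. Psme2, a subunit of the immune proteasome activator, stood at 0.227, 0.312 and 0.38 in RAD001 kidneys, against 0.396, 0.476 and 0.557 in vehicle kidneys (log2 change -0.50, adjusted p = 1.01e-05), without overlap. The RT1 genes have close relatives and their coverage is uncertain. Of the 2 tested neutrophil and mast cell genes none changed. With 7SL as a covariate 0 macrophage, 0 T and NK cell, 0 class II and 2 class I genes were still called. With the sum of both 7SL loci as the covariate 4, 1, 2 and 5 falls were called, in the same order.

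**Figure D4:**
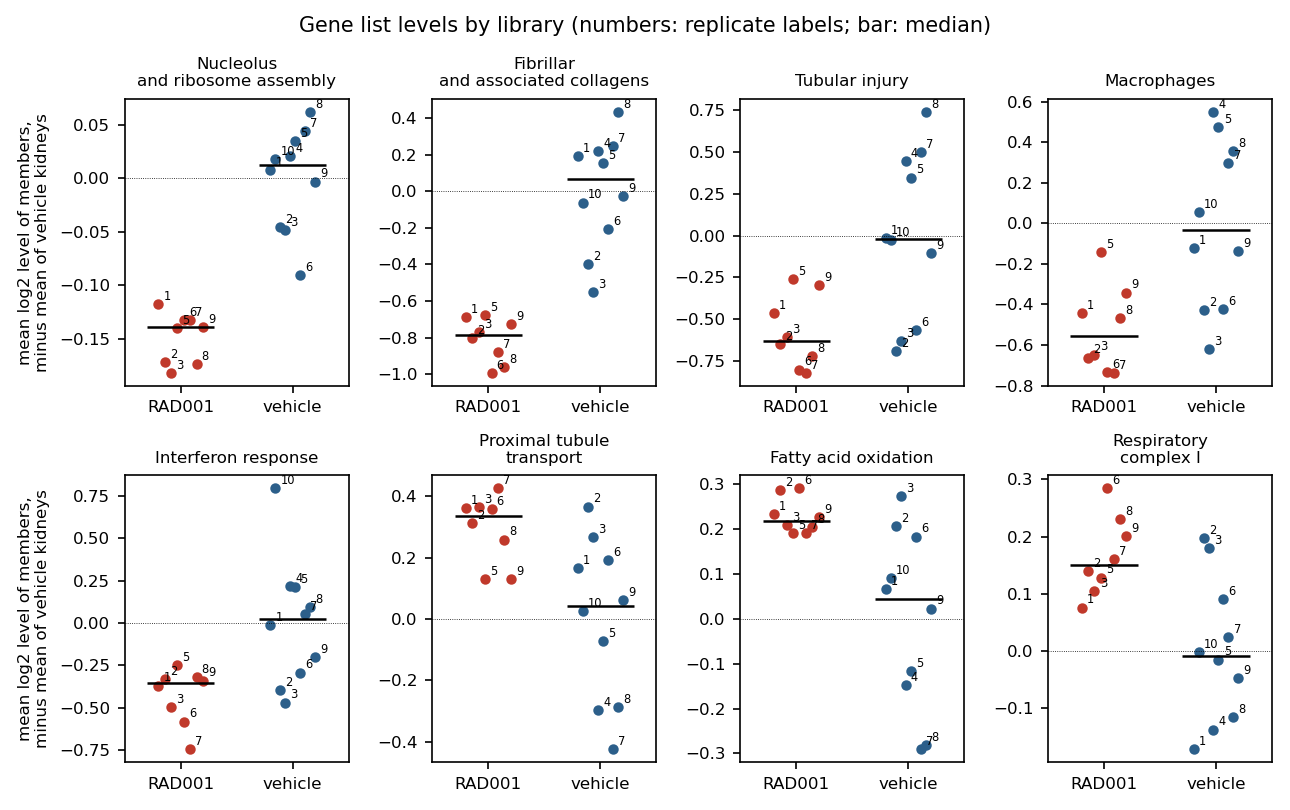
Mean relative log2 level (vertical axis, mean of the vehicle kidneys set to 0) of 8 gene lists in each of 8 RAD001 and 10 vehicle kidneys, 1 numbered point per library, with the median as a bar. The nucleolus and collagen lists are apart between the groups, and the injury, macrophage and other immune lists overlap, with vehicle libraries 2, 3 and 6 low. The proximal tubule transport, fatty acid oxidation and complex I lists, higher with RAD001, overlap too.

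Interferon response genes fell at 28 of 38 tested members and rose at 0 (median -0.48). Oasl2, a 2′-5′-oligoadenylate synthetase-like protein, stood at 0.12, 0.197 and 0.259 in RAD001 kidneys, against 0.208, 0.401 and 0.894 in vehicle kidneys (log2 change -0.75, adjusted p = 0.000218). Parp14, a mono-ADP-ribosyltransferase, stood at 0.718, 0.942 and 1.12 in RAD001 kidneys, against 0.896, 1.69 and 2.16 in vehicle kidneys (log2 change -0.66, adjusted p = 0.000322). Irgm, an immunity-related GTPase, stood at 0.0994, 0.129 and 0.17 in RAD001 kidneys, against 0.142, 0.238 and 0.485 in vehicle kidneys (log2 change -0.53, adjusted p = 0.000717). In all 3 most RAD001 kidneys were below most vehicle kidneys and the ranges overlapped, and with 7SL as a covariate 0 members of the list were called. With the sum of both 7SL loci as the covariate 2 members fell. The interferon-stimulated response element core GAAANNGAAA, the letters read by interferon regulatory factors, was searched on both strands of the RefSeq windows. It was present in 21 of 32 members with a window (65.6%), in 3.77% of all windows, in 2.93% of those of tested genes, and in 16 of the 24 members with a window that fell. The windows of the 3 genes with the smallest p-values are shown, with the match in capitals (on the reverse strand its complement reads TTTCNNTTTC). They lie at chr12:47383136-47383435 (minus strand), chr11:78407884-78408183 (plus strand) and chr10:33742529-33742828 (minus strand) for Oasl2, Parp14 and Irgm in GRCr8, and the matches begin 151, 76 and 34 bases before the start base.
Oasl2: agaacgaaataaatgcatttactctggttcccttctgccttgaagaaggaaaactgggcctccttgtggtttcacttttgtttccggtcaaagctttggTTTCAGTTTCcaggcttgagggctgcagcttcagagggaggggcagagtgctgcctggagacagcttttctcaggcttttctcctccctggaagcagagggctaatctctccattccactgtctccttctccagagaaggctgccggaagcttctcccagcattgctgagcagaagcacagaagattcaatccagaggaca
Parp14: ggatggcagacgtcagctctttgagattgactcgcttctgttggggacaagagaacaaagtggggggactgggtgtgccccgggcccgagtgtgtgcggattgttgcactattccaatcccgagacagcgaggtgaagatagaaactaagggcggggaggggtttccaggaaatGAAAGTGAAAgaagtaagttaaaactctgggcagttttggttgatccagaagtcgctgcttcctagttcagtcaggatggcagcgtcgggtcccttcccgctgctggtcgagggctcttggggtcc
Irgm: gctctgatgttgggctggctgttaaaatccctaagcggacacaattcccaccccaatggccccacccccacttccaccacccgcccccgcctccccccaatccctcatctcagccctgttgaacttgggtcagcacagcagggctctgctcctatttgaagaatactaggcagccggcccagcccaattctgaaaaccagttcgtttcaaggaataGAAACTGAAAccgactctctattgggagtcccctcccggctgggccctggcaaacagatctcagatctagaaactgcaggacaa

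Complement and coagulation genes fell at 14 of 29 and rose at 2. C1qb, a chain of the C1q recognition protein, stood at 0.648, 0.75 and 1.12 in RAD001 kidneys, against 0.89, 1.44 and 2.67 in vehicle kidneys (log2 change -0.73, adjusted p = 0.001), and complement component C2 stood at 0.0955, 0.16 and 0.248 in RAD001 kidneys, against 0.13, 0.453 and 0.704 in vehicle kidneys (log2 change -0.80, adjusted p = 0.00139). Both overlapped. The membrane regulator Cd59 (0.19) and the mannose-binding lectin Mbl1 (0.46) rose; Cd59 was not called with values as deposited. Of 38 chemokines, cytokines and receptors 18 fell and 2 rose. The receptor genes Il10ra (-0.59) and Il1r1 (-0.49) were among those that fell. With upper-quartile scaling or values as deposited none rose.

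Proximal tubule genes were higher. Of 55 transport genes 29 rose and 1 fell (median 0.32), and the rises were 19 without vehicle library 4. Of 52 enzyme genes 28 rose and 0 fell (median 0.31). Slc5a2, the glucose transporter SGLT2 (chromosome 1 from 206728635 to 206734756 on the plus strand), stood at 10.9, 15.1 and 19.3 in RAD001 kidneys, against 6.65, 10.3 and 13.8 in vehicle kidneys (log2 change 0.55, SE 0.10, adjusted p = 0.000135). Slc22a12, the urate transporter URAT1, stood at 11.6, 13.4 and 16.2 in RAD001 kidneys, against 5.45, 8.35 and 12.8 in vehicle kidneys (log2 change 0.66, adjusted p = 0.000235). Hao2, a peroxisomal hydroxy acid oxidase, stood at 287, 332 and 361 in RAD001 kidneys, against 159, 223 and 305 in vehicle kidneys (log2 change 0.59, adjusted p = 5.45e-05). The groups overlapped at the edges in all 3. The mean relative level of the transport list also overlapped, at 0.13, 0.34 and 0.43 in RAD001 kidneys and -0.42, 0.04 and 0.37 in vehicle kidneys. Across both lists 1 member was still called with 7SL as a covariate. With the sum of both 7SL loci as the covariate 6 transport and 9 enzyme rises were called. Lrp2 rose by 0.48 (adjusted p = 0.00937). Slc2a2, the basolateral glucose transporter GLUT2, stood at 2.35, 2.83 and 3.71 in RAD001 kidneys, against 3.14, 3.63 and 4.87 in vehicle kidneys (log2 change -0.38, adjusted p = 0.000929) and was the transport gene that fell. Slc34a1, the phosphate transporter NaPi-IIa, rose by 0.45 (adjusted p = 0.0293), and its adjusted p was 0.059, 0.0609 and 0.0606 without vehicle library 4, 7 or 8 and 0.054, 0.054 and 0.0694 without RAD001 library 1, 3 or 7, 0.0511 with upper-quartile scaling, 0.0611 with the filter at 1 and 0.0502 in the fit of the 2 groups alone. The HNF1 half-site GTTAAT, of a transcription factor of the proximal tubule, was present on either strand in 7 of 45 windows of the transport genes and 7 of 43 of the enzyme genes, against 7.37% of all windows and 4.50% of those of tested genes. Among members that rose 3 of 23 and 2 of 22 windows held it.

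Later segments were divided. Of 28 genes of the loop of Henle and distal tubule 9 rose and 6 fell. The claudin Cldn10 stood at 7.83, 8.69 and 9.5 in RAD001 kidneys, against 5.19, 6.59 and 7.67 in vehicle kidneys (log2 change 0.41, adjusted p = 2.1e-05), while Cldn19, a claudin of the magnesium-absorbing thick limb, stood at 0.39, 0.48 and 0.54 in RAD001 kidneys, against 0.588, 0.723 and 1.13 in vehicle kidneys (log2 change -0.60, adjusted p = 1.07e-05). These 2 tight junction genes moved in opposite directions, each without overlap. Egf, made by the distal nephron, stood at 5.4, 7.3 and 8.61 in RAD001 kidneys, against 3.38, 4.76 and 7.56 in vehicle kidneys (log2 change 0.55, adjusted p = 0.00121), and S100g, the calcium carrier calbindin-D9k, stood at 0.366, 0.659 and 0.874 in RAD001 kidneys, against 0.144, 0.31 and 0.604 in vehicle kidneys (log2 change 0.83, adjusted p = 0.000172). Umod had a log2 change of 0.085 (adjusted p = 0.527), Slc12a1, the bumetanide-sensitive transporter, -0.0068 (adjusted p = 0.961) and Slc12a3, the thiazide-sensitive transporter, 0.027 (adjusted p = 0.898), with the sign of the last changing under upper-quartile scaling and with values as deposited. In the collecting duct 4 of 30 rose and 3 fell, and 7 rose without vehicle library 3. Aqp2, the vasopressin-regulated water channel, stood at 4.2, 4.9 and 6.55 in RAD001 kidneys, against 2.47, 3.52 and 4.69 in vehicle kidneys (log2 change 0.51, adjusted p = 0.00194), and Foxi1, a transcription factor of intercalated cells, stood at 0.154, 0.209 and 0.245 in RAD001 kidneys, against 0.249, 0.276 and 0.327 in vehicle kidneys (log2 change -0.29, adjusted p = 0.00108). Foxi1 was lower without overlap and Aqp2 higher with overlap. Slc4a1, a second intercalated cell marker, was not called (log2 change 0.057, adjusted p = 0.705). The collecting duct gene Atp6v0a4 had a log2 change of 0.27, so Foxi1 does not stand for these cells.

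Podocyte genes were divided (3 rose and 3 fell of 21), and the rises were 1 without vehicle library 5, 7 or 8 or RAD001 library 6, and with upper-quartile scaling 1 rose and 5 fell. Cd2ap, an adaptor protein of the slit diaphragm, fell (-0.31). Endothelial genes fell at 8 of 29 and rose at 2, with the fenestral diaphragm gene Plvap (0.37) higher and the lymphatic marker Lyve1 (-0.33) lower. Erythroid genes were higher at 3 of 5, led by Alas2 (0.54) and Hbb-b1 (0.54), and at 0 against the odd-numbered vehicle kidneys alone, and 1 of 7 adipocyte genes fell. In a list of natriuretic and vasoactive genes 5 of 33 rose and 3 fell; the falls were 6, 7 and 6 without vehicle library 2, 3 or 6 and 5 without RAD001 library 5, and with upper-quartile scaling 4 rose and 6 fell. Gucy1a3, a subunit of the nitric oxide receptor, fell (-0.66), and the peptidase gene Mme rose (0.47).

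In the list of klotho, vitamin D and mineral handling 9 of 24 rose and 6 fell, and the rises were 5 without vehicle library 4, 7 or 8 or RAD001 library 3, and with upper-quartile scaling 5 rose and 6 fell. The ferritin heavy chain Fth1 (0.29) and the transferrin receptor Tfrc (0.27) rose. Kl, klotho, stood at 2.93, 3.57 and 4.96 in RAD001 kidneys, against 1.91, 2.59 and 4.42 in vehicle kidneys (log2 change 0.34, adjusted p = 0.0415). Its adjusted p was 0.0811, 0.0701, 0.0686, 0.0874 and 0.0658 without vehicle library 4, 5, 7, 8 or 10, and 0.0808, 0.0554, 0.0739, 0.0576 and 0.103 without RAD001 library 1, 2, 3, 6 or 7, 0.0812 with upper-quartile scaling, 0.0691 with values as deposited, 0.101 with the filter at 1 and 0.071 in the fit of the 2 groups alone. In the circadian clock 4 of 15 fell, Cry2 (-0.31) and Per3 (-0.36) among them, and Clock rose (0.26). In the growth factor axis 7 of 35 rose, Erbb3 (0.39) and Igfbp2 (0.37) among them, and 5 fell. Those falls were 3 without vehicle library 7 or 9 or RAD001 library 1, 6 or 9, and 2 without vehicle library 8, and with upper-quartile scaling 7 rose and 8 fell. Among histone and chromatin genes 3 of 21 rose and 6 fell, the methyltransferase Ezh2 (-0.41) among those lower. Of 7 non-coding RNAs 2 rose and 3 fell, Rn45s and Gas5 (-0.26), a host gene of small nucleolar RNAs with a TOP sequence, among them.

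The RAD001 change in kidney was set against that in liver and gastrocnemius muscle of the same groups (8 RAD001 and 10 vehicle libraries each) in joint fits with a term for the difference. RAD001 and vehicle livers shared the split of the second 7SL locus by library number and the kidneys did not, so these differences carry the handling of the RAD001 kidney libraries too. The genes below were chosen for their kidney change, which favours a difference. The kidney change differed from the liver change at 2312 of 8576 loci tested in both tissues (27%) and from the gastrocnemius change at 2358 of 8342 (28.3%). The RAD001 change itself passed the test at 24.9% of these loci in liver and 5.86% in gastrocnemius. Hnrnpm changed by -0.64 in kidney, -0.032 in liver and 0.14 in gastrocnemius, where it was called higher (adjusted p = 0.0433). Its difference was -0.61 (SE 0.069, adjusted p = 2.93e-09) against liver and -0.78 (SE 0.06, adjusted p = 6.12e-15) against gastrocnemius. Utp3 changed by -1.36 in kidney, 0.056 in liver and 0.094 in gastrocnemius, with a difference of -1.41 (SE 0.12, adjusted p = 8.36e-13) against liver. Ncl changed by -0.37 in liver (adjusted p = 0.000858), and its kidney change minus its liver change was -0.53 (SE 0.11, adjusted p = 0.000406). Col3a1 changed by -0.11 in liver and -0.034 in gastrocnemius, with differences of -1.41 (SE 0.19, adjusted p = 2.73e-07) and -1.49 (SE 0.21, adjusted p = 3.35e-07). Mgll differed by 0.61 (SE 0.12, adjusted p = 0.000149) from liver and by 0.61 (SE 0.10, adjusted p = 6.16e-06) from gastrocnemius. Ubd, the largest fall in kidney, changed by -4.14 in liver (adjusted p = 2.12e-05) and -1.74 in gastrocnemius (adjusted p = 0.0127). Its kidney change minus its change in the other tissue was 1.02 (SE 0.95, adjusted p = 0.44) for liver and -1.38 (SE 0.62, adjusted p = 0.0884) for gastrocnemius, and neither passed the test.

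**Figure D5:**
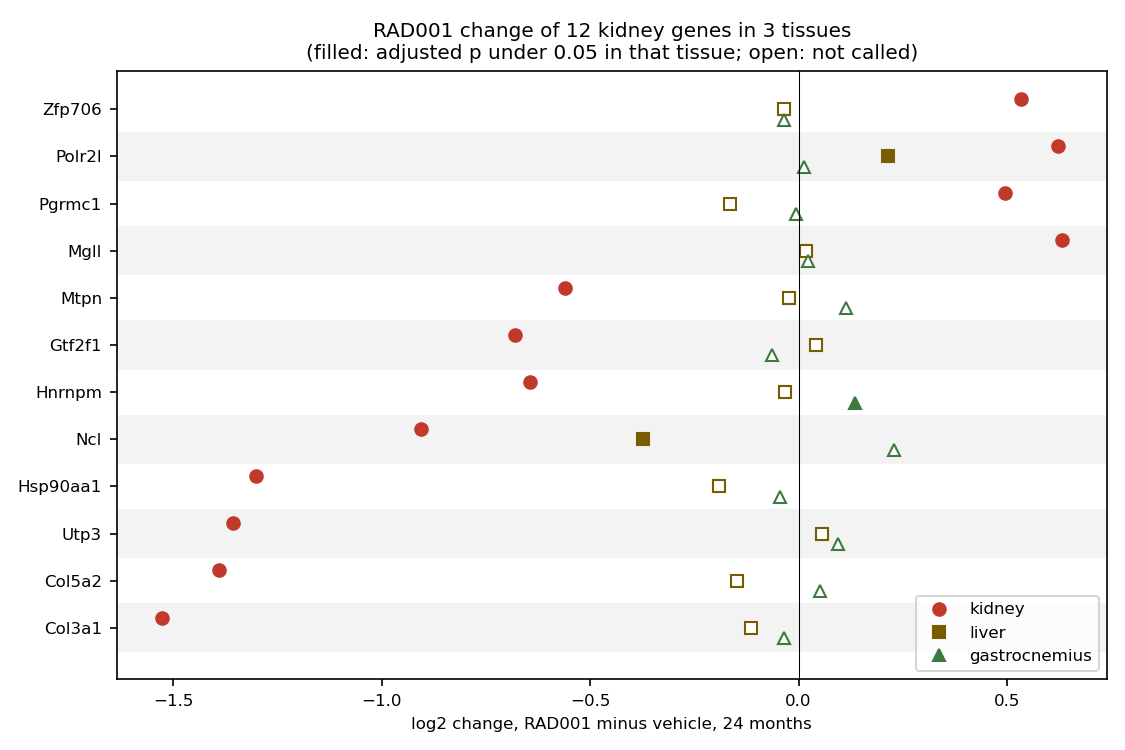
Log2 change (RAD001 minus vehicle, horizontal axis) of 12 genes in kidney, liver and gastrocnemius muscle, with filled symbols where the change was called in that tissue. The kidney changes of Hnrnpm, Hsp90aa1, Utp3, Col3a1 and Col5a2 lie away from the other tissues, while Ncl was also called lower and Polr2l also called higher in liver. Hnrnpm was called higher in gastrocnemius, opposite to its kidney change.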

How the data were processed

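Total RNA was extracted with a miRNeasy kit from frozen kidney powder, per the labels' protocols, and the submitters' processing notes name STAR 2.4.5a and the rn5 build. The deposited values are a coverage signal, the mean reads per base of a locus times 1 factor per library; no source used here names the tool that summarised them. Absolute depth is unknown, and relative depth was read from the step size of small loci. The 28 kidney libraries were scaled by trimmed means of log ratios (30% trimmed on each side). Loci of at least 0.1 in at least 8 libraries (10447 of 17502) were fitted on log2(value + 0.1) with limma 3.58.1 (group means of RAD001, vehicle and young vehicle, trended empirical Bayes, 25 residual degrees of freedom, Benjamini-Hochberg adjustment). Kidney minus liver and kidney minus gastrocnemius changes came from joint fits. The fit was also run on simulated data, in which the residuals of each gene were shuffled over the 28 kidneys; the outcome is not reported here. Shuffling gives all groups the same spread and breaks the correlation between genes, so the calls were not tested under either. The 59 gene lists held 1764 symbols, of which 1640 were found. Named were the 15 largest rises and falls with a group mean of at least 1, the 10 smallest p-values in each direction, up to 3 and 2 members of each list in its main and other direction, and 23 set genes, less some left out for length and some not reported here. The genes and lists were chosen with earlier results of these data known. The alternatives were other scalings, filters, pseudocounts, thresholds and covariates, a replicate block, each library left out, and, added after seeing the data, odd- or even-numbered vehicle kidneys only. Promoter windows are RefSeq's (GRCr8) and were matched by symbol.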

Additional observations from a re-analysis of the deposited data

Results flagged for a closer look

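For the genes named above, single libraries that stood far from the rest of their group were looked for in 394 groups, and 15 were found; chance gives about 1 in 20 groups. Among RAD001 kidneys, library 7 stood apart with Slc51a at 4.46 (next 2.09), Tff3 at 40.3 (next 56.1), Rplp1 at 67.3 (next 72.9) and Ubtf at 0.652 (next 0.564). RAD001 library 5 had Vim at 2.29 (next 1.86) and Il1r1 at 0.394 (next 0.285). RAD001 library 6 had Pgls at 1.16 (next 0.948) and Fbp1 at 63.8 (next 56.1). RAD001 library 9 had Armc1 at 2.47 (next 2.11) and Rrp15 at 0.258 (next 0.196). Among vehicle kidneys, library 10 had Oasl2 at 0.894 (next 0.456) and Irgm at 0.485 (next 0.266). Vehicle library 4 had Slk at 1.84 (next 1.62) and Cd3e at 0.305 (next 0.183), and library 3 had Umod at 132.3 (next 101.4).

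The RAD001 change in kidney differed from that in another tissue at 34 of 36 differences tested for the leading genes, against 27% (liver) and 28.3% (gastrocnemius) of all loci. The genes were chosen for their kidney change, which favours a difference, so the count supports nothing. Each was called by limma after Benjamini-Hochberg adjustment over all loci of its joint fit. Each value is the log2 change in kidney minus that in the other tissue. Among genes higher with RAD001 in kidney, the difference was 0.57 from liver and 0.57 from gastrocnemius for Zfp706, 0.41 and 0.61 for Polr2l, 0.66 and 0.50 for Pgrmc1, and 0.61 and 0.61 for Mgll. Slco1a1 differed by 1.17 and Gc by 0.87 from liver, and Slc51a by 1.48 from gastrocnemius. Among genes lower in kidney, the difference was -0.61 from liver and -0.78 from gastrocnemius for Hnrnpm, -1.11 and -1.26 for Hsp90aa1, -0.72 and -0.62 for Gtf2f1, and -0.54 and -0.67 for Mtpn. For Utp3 it was -1.41 and -1.45, for Ncl -0.53 and -1.13, for Col3a1 -1.41 and -1.49, and for Col5a2 -1.24 and -1.44. Lcn2 differed by -1.82 from liver. The 3 loci of 5.8S ribosomal RNA differed by -3.60, -2.49 and -2.52 from liver and by -3.30, -2.32 and -2.21 from gastrocnemius. Utp3, Ncl, Col3a1 and Col5a2 were added to this set after their values were seen.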

How the results depend on the processing

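The 3910 called loci (1916 up, 1994 down) ranged from 3375 to 4267 (1667 to 2093 up, 1708 to 2174 down) when 1 library at a time was left out. The fit of only the 2 groups compared, without the young vehicle kidneys, called 3404 (1696 up, 1708 down). A filter of at least 1 in 8 libraries, which tests fewer loci, called 1943 (954 up, 989 down). An adjusted p under 0.01 left 2312 (1151 up, 1161 down), and a change of at least 1.5-fold 327 (81 up, 246 down). With 7SL as a covariate 441 were called (168 up, 273 down), and with the sum of both 7SL loci, chosen after seeing the data, 1357 (640 up, 717 down). Values as deposited gave 1188 rises. For these last 3 settings the cause was not tested. Replicate numbers did not pair the kidneys: 3 of 8 same-numbered pairs correlated above 0.1 in their deviations and no library correlated best with its own number. With the number as a replicate block 3555 loci were called (1751 up, 1804 down), and list counts of 3 or more kept within 1.5 times of the main count with 1 exception, the klotho list (5 rises against 9). The block ended the calls of Rps6kb1 (adjusted p = 0.0782), Kl (0.062) and Slc34a1 (0.0557) among the named genes. With even-numbered vehicle kidneys only, chosen after seeing the data and with fewer samples, 2551 loci were called (1290 up, 1261 down), and with odd-numbered ones only 2682 (1343 up, 1339 down). Of 76 list counts of 3 or more, 28 and 25 dropped by over 1.5 times, among them proximal tubule transport rises (16, even) and enzyme rises (18, even), interferon falls (18, odd), T and NK cell falls (7 even, 5 odd), rises of complexes II to V (16, odd) and erythroid rises (0, odd). More of the 76 dropped as far in other settings: 74 with 7SL as a covariate, 64 with the sum of both 7SL loci and 41 with the filter at 1. Of 197 named genes, 127 lost their call with 7SL as a covariate and 60 with the sum of both loci. Of the named genes, Slco1a1, Gc, Dhrs7, Mbl1, Plvap, Mme, Rps6kb1, Kl and Slc34a1 were not called against the even-numbered, and Acaca, Cdkn1c, Per3, Igfbp2, Alas2, Hbb-b1, Gas5, Rps6kb1, Kl and Slc34a1 not against the odd-numbered kidneys.

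Signs changed for 3 genes near 0 that no fit called. Umod had log2 changes of -0.096 and -0.051 with the 7SL covariates. Slc12a1 had 0.010 without a filter, 0.011 with the block, 0.063 and 0.010 with the 7SL covariates, 0.024 with sample weights, 0.065 with odd-numbered vehicle kidneys only, and -0.046 to 0.049 with 1 library left out. Slc12a3 had -0.024 with upper-quartile scaling, -0.0067 as deposited, -0.045 with the stricter filter, -0.047 with the block, and -0.038 to 0.12 with 1 library left out. List counts under 3 can move by 1 or 2 with a single library. Coverage limits the immune and collagen lists: with the stricter filter few of their members are tested.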

Other observations

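Genes of the splicing machinery were looked at after Hnrnpm and Hnrnpu had been seen among the smallest p-values, so the choice of the group is not independent of these values. By symbol (Hnrnp, Snrp, Snrnp, Prpf, Srsf, Sf3a, Sf3b, U2af, Srrm, Srpk and Lsm genes) 82 loci were tested. In RAD001 kidneys 28 of them fell and 11 rose, with a median log2 change of -0.06, against 19.1%, 18.3% and 0.00015 over all loci. Snrpd1, a core protein of the spliceosomal particles, stood at 0.343, 0.455 and 0.534 in RAD001 kidneys, against 0.681, 0.842 and 1.01 in vehicle kidneys (log2 change -0.76, adjusted p = 1.66e-08). Snrnp70, the U1-specific protein, stood at 2.14, 2.22 and 2.85 in RAD001 kidneys, against 2.95, 3.55 and 3.94 in vehicle kidneys (log2 change -0.57, adjusted p = 1.45e-08). The groups did not overlap for either gene. Srpk2, a kinase of splicing factors, fell by a log2 change of -0.54, while Sf3b5 (0.40) and Snrpb (0.32) rose. The ranges were apart for 8 lower and 2 higher genes of the group. Over all 10447 loci they were apart at 340 (3.25%), 195 lower and 145 higher. With 7SL as a covariate 14 of the called loci were still called. The age difference passed the test at 16 of the 82 (43% over all loci). The RAD001 change passed the test at 20 of 78 of these loci in liver (24.9% over all loci) and at 5 of 77 in gastrocnemius (5.86%); the counts are given side by side and their difference was not tested.

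The share of loci that rose was higher among short loci and the share that fell among long ones. In the decile with the shortest span (up to 3393 bases) 24.0% rose and 16.2% fell, and in the decile with the longest span (102640 bases or more) 12.8% rose and 22.2% fell. The median log2 change was 0.026 in the shortest and -0.037 in the longest decile. The medians of the age differences ran the other way over the longer spans, with -0.021 in the third decile and 0.032 in the longest, after 0.015 in the shortest. These are counts over loci of the same libraries and carry no test.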
